A study of Arabidopsis thaliana with 12 samples.

Results

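The comparison set shoots that carried the lcs7 mutation on normal calcium against wild-type shoots on low calcium, 3 arrays of each out of 12 arrays in all. The lcs7 line is a mutant of the Arabidopsis gene AVP1, and its seedlings grew on agar medium with sucrose and 2 mM calcium. The wild type, Col-0, grew on the same medium with 0.3 mM calcium. All seedlings were 14 days old, and only the shoots were taken. The other groups were Col-0 at 2 mM calcium and lcs7 at 0.3 mM calcium, also with 3 biological replicates each. The submitters name 1 mutant line, so an effect of the AVP1 lesion and of any other difference of that line cannot be told apart. RNA was hybridised to Affymetrix arrays, and a value is the signal of a probe set on a linear scale. Of 22746 probe sets, 13513 name 1 gene, and 1 probe set per gene gave 13356 genes.

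AVP1 is the proton-pumping pyrophosphatase of the vacuole membrane. It uses the energy of pyrophosphate to make the vacuole acid, and the resulting proton gradient drives exchangers that store calcium and other ions there. Calcium outside the cell also stabilises pectin in the wall, and calcium inside it is a signal in defence, cold and drought responses. Low calcium in the medium and a weak vacuolar pump can therefore both alter the calcium of a cell, by different routes. The question was which genes tell these routes apart.

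The difference lcs7 at 2 mM minus Col-0 at 0.3 mM equals the effect of the mutation at 2 mM minus the effect of low calcium in Col-0, because the Col-0 arrays at 2 mM cancel. A test of this difference is thus the test of whether the 2 effects are unequal. It was made with limma on log2 signals, with 1 mean per group over all 12 arrays. P-values were adjusted over all genes by Benjamini-Hochberg, and calls were made at 0.05. Differences below are log2 values ± SE (n = 3 arrays in each group), and a positive one is higher in lcs7 at 2 mM. The Col-0 arrays at 2 mM, which the difference does not use, place each called gene. A level near Col-0 at 0.3 mM puts a gene on the side of the mutation, and one near lcs7 at 2 mM on the side of low calcium. Near means within 0.25 of the distance between the groups, or beyond that group. The genes between are called opposed here, since the 2 effects then ran in opposite directions and each made up at least 0.25 of the difference. Opposite but more unequal effects fall on one of the sides. The placing is a description, and does not show that either effect passed a test of its own.

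The 12 arrays had median signals from 161.3 to 187.6, and 17.1 to 19.3% of their probe sets lay under a signal of 20, where log2 values have wide errors. No probe set is named AVP1 here, so its transcript was not analysed and does not check the lcs7 label. The shoot marker RCA, the activase of Rubisco, was at 23573.8, 25509.7 and 23117.1 in lcs7 at 2 mM and at 23830.7, 23898.1 and 21554.8 in Col-0 at 0.3 mM. It did not pass the test (0.06 ± 0.09, adjusted p = 0.784). Of the root markers listed, PYK10 alone was measured, and the markers listed for flowers and senescence were not measured under their names. Fewer cells of a type and less RNA per cell cannot be told apart in whole shoots.

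Replicates 2 and 3 of Col-0 at 0.3 mM stood apart from replicate 1 at genes that mark the lcs7 line. These are the 11 genes for which all lcs7 arrays, at either calcium level, exceeded all Col-0 arrays at 2 mM by 8-fold or more, with lcs7 means of 300 or more. They were chosen with the values seen. The first replicate lay at a median of 0.2% of the way from Col-0 to lcs7 at 2 mM, replicate 2 at 28.5% and replicate 3 at 45.9%. HTB11, which encodes a histone H2B, was at 1341.6, 1053.0 and 1215.3 in lcs7 at 2 mM and at 115.5, 970.6 and 1006.2 in Col-0 at 0.3 mM. Only replicate 1 was low. The difference was 1.31 with all arrays and 3.37 without replicates 2 and 3, which are called the doubted arrays below. Because the genes were chosen for high lcs7 arrays, these values are a description with no test. Results without replicates 2 and 3 rest on 1 array of Col-0 at 0.3 mM, which is assumed to vary like the arrays of the other groups.

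Of 13356 genes, 360 were called (2.7%): 196 were higher in lcs7 at 2 mM than in Col-0 at 0.3 mM (1.47%) and 164 were lower (1.23%). An unadjusted p under 0.05 was reached by 2388 genes (8.36% of all genes higher and 9.52% lower). The median size of a called difference was 0.89, the smallest was 0.37, and 148 called genes differed at least 2-fold, 83 of them higher and 65 lower. Each called gene had arrays that did not overlap between the groups, as did 22.2% of all genes (10.1% higher and 12.1% lower). The median difference of all genes was -0.02.

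The placing by Col-0 at 2 mM divided the rises into 79 with that group near Col-0 at 0.3 mM (40.3%), 75 between (38.3%) and 42 near lcs7 at 2 mM (21.4%). The falls divided into 69 (42.1%), 62 (37.8%) and 33 (20.1%) in the same order. Most of these genes did not pass for a single effect: 213 of the 360 were called neither for the mutation at 2 mM nor for low calcium in Col-0. On the side of the mutation 118 of 148 were called for the mutation, and on that of low calcium 17 of 75 for low calcium. Of the 137 opposed genes, 11 were called for the mutation and 1 for low calcium. These effects share arrays with the comparison, so the counts are no independent support for the placing. Without replicates 2 and 3 of Col-0 at 0.3 mM the order of these classes by size was not the same. That fit picks and places genes by 1 array of that group, so the change cannot be assigned to the doubted arrays. The order is thus not taken as a result.

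The calls also depended on which arrays were used. Leaving out 1 array left from 65 to 250 calls. The count was 65 without lcs7 replicate 3 at 2 mM, 75 without replicate 2 and 179 without replicate 1. It was 142, 148 and 191 without replicates 1, 2 and 3 of Col-0 at 0.3 mM. Arrays outside the comparison mattered through the pooled error, with 202, 250 and 212 calls without replicates 1, 2 and 3 of Col-0 at 2 mM and 217, 159 and 137 for lcs7 at 0.3 mM. Of the 360 genes, 46 were called in each of these 12 fits, and their count is given as 12 of 12 below. That count does not cover a fit of the compared arrays alone, in which 3 of the 360 genes were called. Of the 58 called genes named by rule, 0 were called in it, including those marked 12 of 12. The calls of these named genes thus depend on the error pooled with the other groups. Without both replicates 2 and 3 of Col-0 at 0.3 mM, 241 genes were called, 184 higher and 57 lower. Most of the 360 genes were not among them. All 360 kept their sign, but this was fixed in advance, because their arrays did not overlap between the groups. Some of the 57 called genes with a symbol were called in that fit as well. These were AILP1, AKINBETA1, ALDH6B2, COR27, Fes1B, GRXC1, LHCB4.2 and scpl42, which were higher, and ATPMEPCRB, BHLH101, CYTC6A, LOV1, MT1C and scpl29, which were lower.

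**Figure D1:**
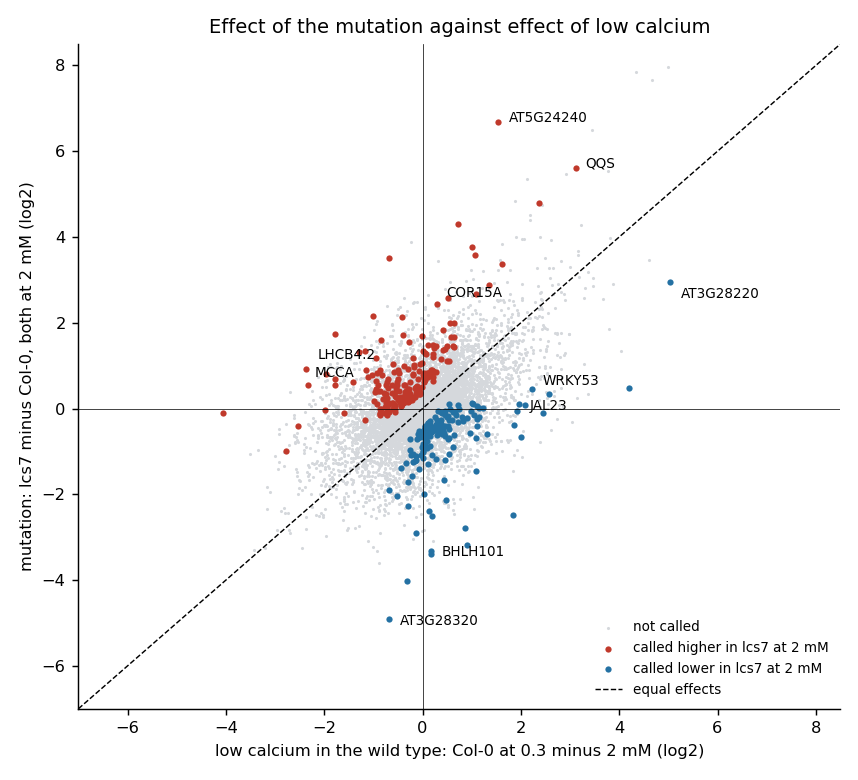
Each point is 1 of 13356 genes; the vertical axis is the effect of the mutation (lcs7 minus Col-0, both at 2 mM calcium, log2) and the horizontal axis the effect of low calcium (Col-0 at 0.3 minus 2 mM, log2), 3 arrays a group. The 196 genes called higher in lcs7 at 2 mM than in Col-0 at 0.3 mM (red) lie above the dashed line of equal effects and the 164 called lower (blue) below it; both axes share the Col-0 arrays at 2 mM, so no slope is read from the cloud.

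The largest rises of the mutation were in genes at low levels in both groups of Col-0. AT5G24240, listed by locus only, was at 579.2, 452.7 and 559.2 in lcs7 at 2 mM and at 6.3, 21.6 and 23.8 in Col-0 at 0.3 mM. The normal wild type was at 3.9, 2.3 and 14.7. All 3 lcs7 arrays were far above all 6 Col-0 arrays, and the difference was 5.16 ± 0.67 (adjusted p = 0.0097, called in 12 of 12 fits). With group signals under 20 raised to 20 it was 4.72. It is one of the 11 genes that mark the line, and without the doubted arrays the difference was 6.39. AT5G42250 rose likewise, to 417.5, 847.4 and 712.7 in lcs7 at 2 mM against 150.4, 79.5 and 113.4 in Col-0 at 0.3 mM (2.51 ± 0.29, adjusted p = 0.00753, 12 of 12). Wild-type shoots at 2 mM lay lower still, from 45.6 to 62.4, so low calcium had not carried this gene as far as the mutation.

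COR15A, a cold-induced protein that protects chloroplast membranes, was at 5796.1, 5264.4 and 2792.0 in lcs7 at 2 mM and at 915.0, 723.7 and 1462.7 in Col-0 at 0.3 mM. Wild type at 2 mM was at 605.5, 1142.9 and 765.5, in the same range as Col-0 at 0.3 mM. The difference was 2.15 ± 0.35 (adjusted p = 0.0204), and it was called in 8 of 12 fits. Without replicates 2 and 3 of Col-0 at 0.3 mM it was 2.27 (adjusted p = 0.0653). Lcs7 at 0.3 mM was at 987.2, 1202.2 and 1033.2, so the high level was seen in the mutant on normal calcium and not in the mutant on low calcium. AT5G35970 had the same pattern, with 1333.5, 1840.6 and 1430.0 in lcs7 at 2 mM against 296.4, 368.1 and 404.6 in Col-0 at 0.3 mM. It rose by 2.1 ± 0.16 (adjusted p = 0.00177, 12 of 12), and it lay at 381.2 to 464.6 in lcs7 at 0.3 mM.

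GRXC1 encodes a glutaredoxin, a small enzyme that reduces protein disulphides with glutathione. It was at 826.7, 904.1 and 748.7 in lcs7 at 2 mM and at 326.5, 324.7 and 317.1 in Col-0 at 0.3 mM, while Col-0 at 2 mM was at 202.5, 215.9 and 202.0. Both the mutation (2.00, adjusted p = 8.28e-05) and low calcium (0.64, adjusted p = 0.0437) raised it, the mutation by more. The difference of 1.35 ± 0.10 had an adjusted p of 0.00177, held in 12 of 12 fits and was 1.34 without the doubted arrays. QQS, a gene of Arabidopsis alone that lowers leaf starch, was at 431.6, 626.2 and 485.6 in lcs7 at 2 mM and at 46.7, 103.1 and 150.4 in Col-0 at 0.3 mM. QQS in Col-0 at 2 mM was near background, at 10.6, 4.9 and 21.3. The QQS difference of 2.50 ± 0.54 passed narrowly (adjusted p = 0.0456) and in 2 of 12 fits. Without the doubted arrays it was 3.44 (adjusted p = 0.0604).

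PYK10 is the beta-glucosidase that fills ER bodies, compartments of the endoplasmic reticulum that hold enzymes against herbivores, and it is most abundant in roots. Its signal was 2468.6, 2994.4 and 2575.6 in lcs7 at 2 mM and 1350.5, 1596.3 and 1656.8 in Col-0 at 0.3 mM. It rose by 0.80 ± 0.17 (adjusted p = 0.0449), called in 1 of 12 fits, and the part of root tissue in this value was not tested. Smaller rises on the mutation side were found for GSTU26, a glutathione transferase (0.86 ± 0.18, adjusted p = 0.0456), and for scpl42, a serine carboxypeptidase-like gene (0.75 ± 0.15, adjusted p = 0.0361). ARD4, of the acireductone dioxygenases of methionine salvage, rose by 0.68 ± 0.14 (adjusted p = 0.0455). U2AF35B, a subunit of the splicing factor that binds the end of introns, rose by 0.41 ± 0.09 (adjusted p = 0.043). Each of these 4 was called in 1 of 12 fits.

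BHLH101, one of the bHLH factors that switch on iron uptake, had fallen in lcs7 at 2 mM to 6.6, 4.9 and 1.9, against 55.0, 30.1 and 50.9 in Col-0 at 0.3 mM. Col-0 at 2 mM (44.2, 41.1 and 32.9) and lcs7 at 0.3 mM (32.2, 50 and 27.5) were like Col-0 at 0.3 mM, so the low value belonged to the mutant on normal calcium. The difference of -3.47 ± 0.45 had an adjusted p of 0.0097 and held in 12 of 12 fits. The low arrays were under 20, and with that group raised to 20 the difference was -1.13. CYTC6A, a cytochrome of the thylakoid lumen, was at 985.5, 1209.1 and 1039.7 in lcs7 at 2 mM and at 2221.1, 2010.7 and 2042.1 in Col-0 at 0.3 mM. Its level in Col-0 at 2 mM was higher than both, at 2871.6, 2710.2 and 2880.9, and lcs7 at 0.3 mM lowest, at 370.8, 428.5 and 382.7. Its difference was -0.96 ± 0.11 (adjusted p = 0.00598, 12 of 12).

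LOV1, a resistance-type receptor that makes Arabidopsis sensitive to a fungal toxin, was at 49.0, 73.6 and 85.1 in lcs7 at 2 mM and at 230.0, 153.4 and 168.6 in Col-0 at 0.3 mM. Its difference of -1.43 ± 0.23 (adjusted p = 0.0204) held in 10 of 12 fits, and Col-0 at 2 mM was at 192.7 to 253.3. SIS, a salt-induced serine-rich protein, fell by 1.32 ± 0.24 (adjusted p = 0.0291, 6 of 12), and by 0.80 (adjusted p = 0.0956) without the doubted arrays. AGL24, a MADS-box factor that promotes flowering, fell by 0.82 ± 0.17 (adjusted p = 0.0403, 1 of 12). RL2, a relative of the membrane-shaping GTPase RHD3, fell by 0.45 ± 0.08 (adjusted p = 0.0291, 5 of 12). The chromatin remodelling gene chr31 fell by 2.62 ± 0.54 (adjusted p = 0.0406, 2 of 12), with lcs7 at 2 mM under 20. Among the genes listed by locus only, AT1G20490 (-2.53 ± 0.33, adjusted p = 0.0097), AT1G15870 (-2.01 ± 0.26, adjusted p = 0.0097) and AT1G19450 (-1.54 ± 0.19, adjusted p = 0.00901) fell in 12 of 12 fits. AT3G28320 fell further but less stably, with 66.4, 16.0 and 11.9 in lcs7 at 2 mM against 340.9, 646.1 and 373.0 in Col-0 at 0.3 mM (-4.22 ± 0.72, adjusted p = 0.0233, 7 of 12). It was at 612.0 to 853.2 in Col-0 at 2 mM and at 4.3 to 23.0 in lcs7 at 0.3 mM, so it was low in lcs7 at both calcium levels.

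The other genes among the 15 largest rises and falls are listed by locus only. AT5G51630 was at 170.8, 117.0 and 134.1 in lcs7 at 2 mM and at 5.1, 40.3 and 7.5 in Col-0 at 0.3 mM (3.59 ± 0.70, adjusted p = 0.0355, 3 of 12). With 4.4 to 13.3 in Col-0 at 2 mM and 157.5 to 244.9 in lcs7 at 0.3 mM, it was high in lcs7 at both calcium levels. In the doubted replicate 2 it was higher than in the other Col-0 arrays at 0.3 mM, and without replicates 2 and 3 the difference was 4.77 (adjusted p = 0.0122). AT3G45730 was at 255.7 to 273.8 in lcs7 at 2 mM and at 30.6 to 73.2 in Col-0 at 0.3 mM (2.43 ± 0.48, adjusted p = 0.0371, 3 of 12), with 1.87 (adjusted p = 0.209) without the doubted arrays. Smaller rises on the side of the mutation were those of AT1G20030 (2.06 ± 0.41, adjusted p = 0.0388) and AT1G21730 (1.84 ± 0.35, adjusted p = 0.0347), which were 3.21 and 2.81 without the doubted arrays. In the opposed class AT5G62280 was at 236.3, 179.9 and 175.3 in lcs7 at 2 mM and at 6.6, 31.3 and 24.2 in Col-0 at 0.3 mM (3.51 ± 0.65, adjusted p = 0.031, 4 of 12). AT4G33980 (2.05 ± 0.30, adjusted p = 0.0151) and AT3G49160 (2.12 ± 0.33, adjusted p = 0.0175) rose in 10 and 9 of 12 fits. Among the falls, AT1G31690 was at 300.6, 342.0 and 268.2 in lcs7 at 2 mM and at 749.5, 954.6 and 1205.9 in Col-0 at 0.3 mM (-1.66 ± 0.20, adjusted p = 0.00792, 12 of 12). AT1G60590 fell in 12 of 12 fits as well (-1.58 ± 0.21, adjusted p = 0.0106). AT4G29700, on the side of low calcium, was at 42.4, 48.5 and 71.7 in lcs7 at 2 mM and at 209.5, 432.7 and 324.2 in Col-0 at 0.3 mM (-2.55 ± 0.46, adjusted p = 0.0291, 5 of 12).

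**Figure D2:**
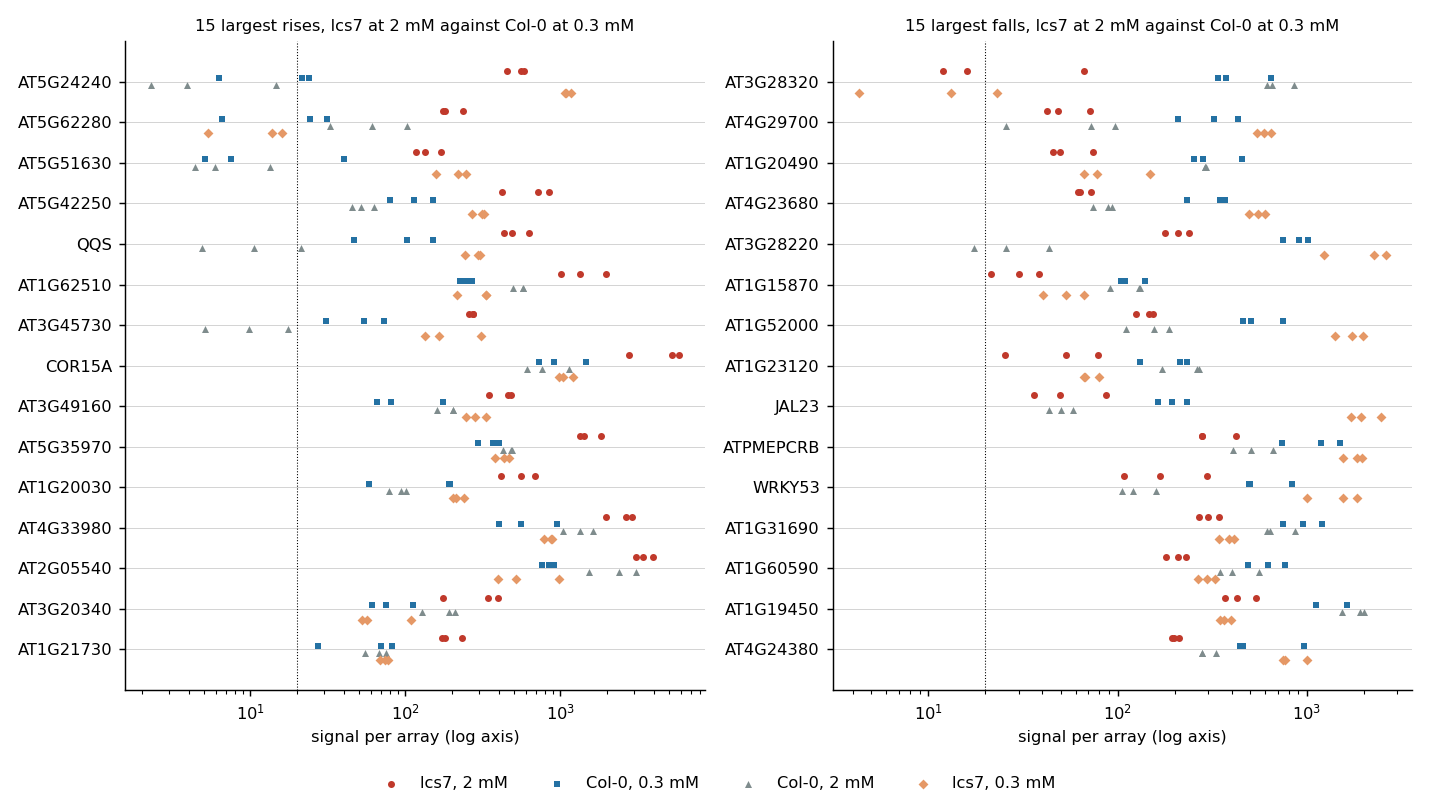
Signal of each of the 12 arrays (log axis) for the 15 largest rises (left) and the 15 largest falls (right) of lcs7 at 2 mM against Col-0 at 0.3 mM; each point is 1 array, with 3 per group, and the dotted line marks a signal of 20. AT5G24240 and COR15A show the red lcs7 points at 2 mM apart from both Col-0 groups, and JAL23 and AT4G23680 show the blue Col-0 points at 0.3 mM apart from Col-0 at 2 mM.

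Genes placed on the side of low calcium included falls in which the mutant lay near the level of wild-type shoots at 2 mM. AT4G23680, listed by locus only, was at 71.9, 61.4 and 63.2 in lcs7 at 2 mM and at 367.4, 348.7 and 233.9 in Col-0 at 0.3 mM. With 73.7, 93.5 and 89.3, Col-0 at 2 mM was like the mutant. The difference of -2.25 ± 0.18 had an adjusted p of 0.00189 and held in 12 of 12 fits, and without the doubted arrays it was -2.49 (adjusted p = 0.00248). AT1G52000 was at 145.6, 124.9 and 153.7 in lcs7 at 2 mM and at 459.2, 744.5 and 509.1 in Col-0 at 0.3 mM (-1.99 ± 0.24, adjusted p = 0.00792, 12 of 12). Both genes were still higher in lcs7 at 0.3 mM, where AT4G23680 was at 493.7 to 603.1 and AT1G52000 at 1403.2 to 1973.8.

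JAL23, a jacalin-related lectin of the ER body system, was at 49.4, 36.0 and 87.0 in lcs7 at 2 mM and at 193.8, 232.9 and 163.8 in Col-0 at 0.3 mM. Col-0 at 2 mM was at 50.3, 57.8 and 43.6, so the mutant on normal calcium had the wild-type level. The difference of -1.86 ± 0.30 (adjusted p = 0.0204) held in 8 of 12 fits, and lcs7 at 0.3 mM reached 1931.8, 1703.0 and 2473.1. WRKY53, a transcription factor of leaf senescence and defence, was at 295.4, 108.1 and 167.2 in lcs7 at 2 mM and at 503.3, 831.6 and 492.8 in Col-0 at 0.3 mM. Its difference of -1.76 ± 0.39 passed narrowly (adjusted p = 0.0489), in 1 of 12 fits, and was -1.53 (adjusted p = 0.22) without the doubted arrays.

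AT3G28220 was moved by both conditions, to different levels. It was at 177.8, 238.9 and 209.4 in lcs7 at 2 mM and at 750.7, 1012.5 and 907.4 in Col-0 at 0.3 mM, against 17.5, 25.6 and 43.2 in Col-0 at 2 mM. The mutation raised it by 2.95 (adjusted p = 0.00521) and low calcium by 5.04 (adjusted p = 0.00175), and the difference was -2.09 ± 0.36 (adjusted p = 0.0233, 6 of 12). BGLU40, a beta-glucosidase, was at 159.9, 212.4 and 170.4 in lcs7 at 2 mM and at 368.9, 324.8 and 392.4 in Col-0 at 0.3 mM. It fell by 1.01 ± 0.15 (adjusted p = 0.0165, 11 of 12), with Col-0 at 2 mM at 203.4 to 212.1.

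Other named falls on this side had smaller margins. The glutathione transferase GSTU20 fell by 1.05 ± 0.21 (adjusted p = 0.0371, 3 of 12) and TBL26, of a family that acetylates wall polysaccharides, by 1.04 ± 0.21 (adjusted p = 0.0402, 2 of 12). The histone H2B gene HTB2 fell by 0.71 ± 0.13 (adjusted p = 0.0332, 3 of 12). Among chaperones, the calcium-binding calreticulin CRT1b fell by 0.58 ± 0.12 (adjusted p = 0.0406, 2 of 12) and ATERDJ3B, a DnaJ cochaperone of the endoplasmic reticulum, by 0.50 ± 0.11 (adjusted p = 0.048, 0 of 12). HL, a phosphatase of the HAL2 type, fell by 0.51 ± 0.09 (adjusted p = 0.0281, 4 of 12). CRT1b was at 1613.0, 1574.9 and 1727.4 in lcs7 at 2 mM and at 2763.9, 2161.2 and 2444.7 in Col-0 at 0.3 mM. The range in Col-0 at 2 mM, 1546.9 to 1838.7, held that of the mutant.

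Rises of this class lay lower in Col-0 at 0.3 mM than at 2 mM, with the mutant near the level of Col-0 at 2 mM. AKINBETA1, the beta subunit of the energy-sensing kinase SnRK1, was at 3340.9, 3412.5 and 3455.2 in lcs7 at 2 mM and at 1762.3, 1855.9 and 1901.4 in Col-0 at 0.3 mM. The level in Col-0 at 2 mM was 2875.9, 2901.9 and 3537.3, and lcs7 at 0.3 mM was lowest, at 1161.1, 1006.3 and 976.3. The rise of 0.89 ± 0.11 had an adjusted p of 0.00827 and held in 12 of 12 fits. GH3.17, which joins the hormone auxin to glutamate and so removes it, was at 186.9, 319.3 and 241.5 in lcs7 at 2 mM and at 113.7, 116.0 and 137.0 in Col-0 at 0.3 mM (1.00 ± 0.18, adjusted p = 0.027, 7 of 12). AT3G05900 was the largest of the class, at 1033.5, 1473.6 and 1160.6 against 359.5, 404.6 and 533.4 (1.50 ± 0.23, adjusted p = 0.0175, 8 of 12).

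SKU5, a wall and membrane protein of directional root growth, rose by 0.72 ± 0.16 (adjusted p = 0.0489). The plastid genes psbA, for the D1 protein of photosystem II, and psbE, for a subunit of cytochrome b559, rose by 0.57 ± 0.12 (adjusted p = 0.0476) and 0.52 ± 0.11 (adjusted p = 0.0489). These 3 lost the call in each of the 12 single-array fits. bHLH121, an upstream regulator of iron uptake genes, rose by 0.60 ± 0.11 (adjusted p = 0.0341, 3 of 12). Fes1B and Fes1C, exchange factors of the chaperone HSP70, rose by 0.80 ± 0.18 (adjusted p = 0.049, 1 of 12) and 0.52 ± 0.08 (adjusted p = 0.0204, 8 of 12). Fes1B was at 1.25 (adjusted p = 0.0109) without the doubted arrays. VPS20.1, of the ESCRT complex that sorts membrane proteins to the vacuole, rose by 0.55 ± 0.10 (adjusted p = 0.0343, 3 of 12), and BPC1, a GAGA-binding factor, by 0.47 ± 0.10 (adjusted p = 0.0409, 1 of 12).

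In the opposed class the mutant lay on one side of normal wild-type shoots and low calcium on the other. LHCB4.2, a minor antenna protein of photosystem II, was at 14129.8, 17690.2 and 14840.8 in lcs7 at 2 mM and at 4137.0, 8189.8 and 6351.7 in Col-0 at 0.3 mM. Between most of these lay Col-0 at 2 mM, at 7776.8, 8189.5 and 7430.5. The difference was 1.37 ± 0.21 (adjusted p = 0.0175, 10 of 12), and 1.90 (adjusted p = 0.00313) without the doubted arrays. AT2G30600 was at 5331.2, 5658.0 and 5635.5 in lcs7 at 2 mM and at 1416.8, 1969.5 and 1411.4 in Col-0 at 0.3 mM, with Col-0 at 2 mM at 2663.0 to 3742.1. It rose by 1.81 ± 0.19 (adjusted p = 0.00598, 12 of 12), and AT1G62510 rose by 2.50 ± 0.25 (adjusted p = 0.00571, 12 of 12).

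Mitochondrial genes for the breakdown of branched-chain amino acids were among the opposed rises, a grouping made after the values were seen. MCCA, a subunit of the carboxylase of leucine breakdown, was at 2285.2, 1560.1 and 2051.1 in lcs7 at 2 mM and at 625.1, 590.0 and 717.1 in Col-0 at 0.3 mM. In Col-0 at 2 mM it was at 1478.4, 898.6 and 1410.4, below every mutant array and above every array of low calcium. It rose by 1.60 ± 0.21 (adjusted p = 0.0106, 12 of 12), and by 1.63 (adjusted p = 0.0606) without the doubted arrays. ALDH6B2, the semialdehyde dehydrogenase of valine breakdown, rose by 0.89 ± 0.12 (adjusted p = 0.0137, 11 of 12). ETFQO passes electrons from these reactions to the respiratory chain, and it rose by 0.74 ± 0.14 (adjusted p = 0.035, 1 of 12). How many other genes of this pathway were measured was not counted.

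Other opposed rises with a symbol or a known name, chosen after the values were seen, were less alike in role. COR27, a cold and clock regulator, was at 4137.5, 4111.6 and 4087.9 in lcs7 at 2 mM and at 1890.5, 2640.1 and 2270.0 in Col-0 at 0.3 mM (0.87 ± 0.14, adjusted p = 0.0204, 7 of 12). FER encodes FERONIA, a receptor kinase that senses the state of the wall, and it rose by 0.62 ± 0.11 (adjusted p = 0.0266, 5 of 12). AT5G61590, which encodes DEWAX, a repressor of wax synthesis, rose by 1.08 ± 0.21 (adjusted p = 0.0349, 4 of 12). AT5G47390, which encodes KUA1, a MYB-type factor of leaf cell expansion, rose by 0.59 ± 0.10 (adjusted p = 0.0244, 8 of 12). AILP1 rose by 0.76 ± 0.11 (adjusted p = 0.0164, 10 of 12). For all 5 the mean of Col-0 at 2 mM lay between the compared groups.

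Opposed falls included wall enzymes and a metallothionein. MT1C, a metallothionein that binds metal ions, was at 1289.4, 1299.7 and 1575.7 in lcs7 at 2 mM and at 5283.3, 3691.8 and 3193.1 in Col-0 at 0.3 mM. In Col-0 at 2 mM it was at 2702.9, 2696.0 and 2337.9, apart from both. The difference of -1.52 ± 0.18 had an adjusted p of 0.00792 and held in 12 of 12 fits, and without the doubted arrays it was -1.93 (adjusted p = 0.00525). ATPMEPCRB, the pectin methylesterase PME41, was at 277.7, 278.8 and 424.0 in lcs7 at 2 mM and at 1182.1, 1491.3 and 736.8 in Col-0 at 0.3 mM. It fell by 1.77 ± 0.29 (adjusted p = 0.0204, 8 of 12), with Col-0 at 2 mM at 406.1 to 662.0.

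GH9C2, a family 9 endoglucanase that can act on wall cellulose, was at 217.0, 142.0 and 161.3 in lcs7 at 2 mM and at 461.9, 475.9 and 529.1 in Col-0 at 0.3 mM. The groups were well apart, with a difference of -1.52 ± 0.20 (adjusted p = 0.0097, 12 of 12) that was -1.44 (adjusted p = 0.0724) without the doubted arrays. WSD1, a wax ester synthase, was at 4.5, 1.6 and 4.1 in lcs7 at 2 mM and at 100.3, 49.7 and 48.6 in Col-0 at 0.3 mM. Its difference of -4.33 ± 0.67 (adjusted p = 0.0175, 9 of 12) has an uncertain size, and with the low group raised to 20 it was -1.64. The carboxypeptidase-like scpl29 fell by 0.91 ± 0.11 (adjusted p = 0.00792, 12 of 12) and the histone H2B gene HTB1 by 0.89 ± 0.16 (adjusted p = 0.0291, 6 of 12). LCR, an F-box protein of leaf shape, fell by 0.63 ± 0.12 (adjusted p = 0.0349, 3 of 12). HLL, a mitochondrial ribosomal protein needed in ovules, fell by 0.73 ± 0.12 (adjusted p = 0.0204, 8 of 12), and PCME, a methylesterase of prenylated proteins, by 0.75 ± 0.15 (adjusted p = 0.0349, 2 of 12). SK18, of the SKP1 family of ubiquitin ligase adaptors, fell by 0.62 ± 0.13 (adjusted p = 0.0401, 0 of 12), and AT1G33440, the transporter NPF4.4, by 0.93 ± 0.19 (adjusted p = 0.0397, 2 of 12).

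**Figure D3:**
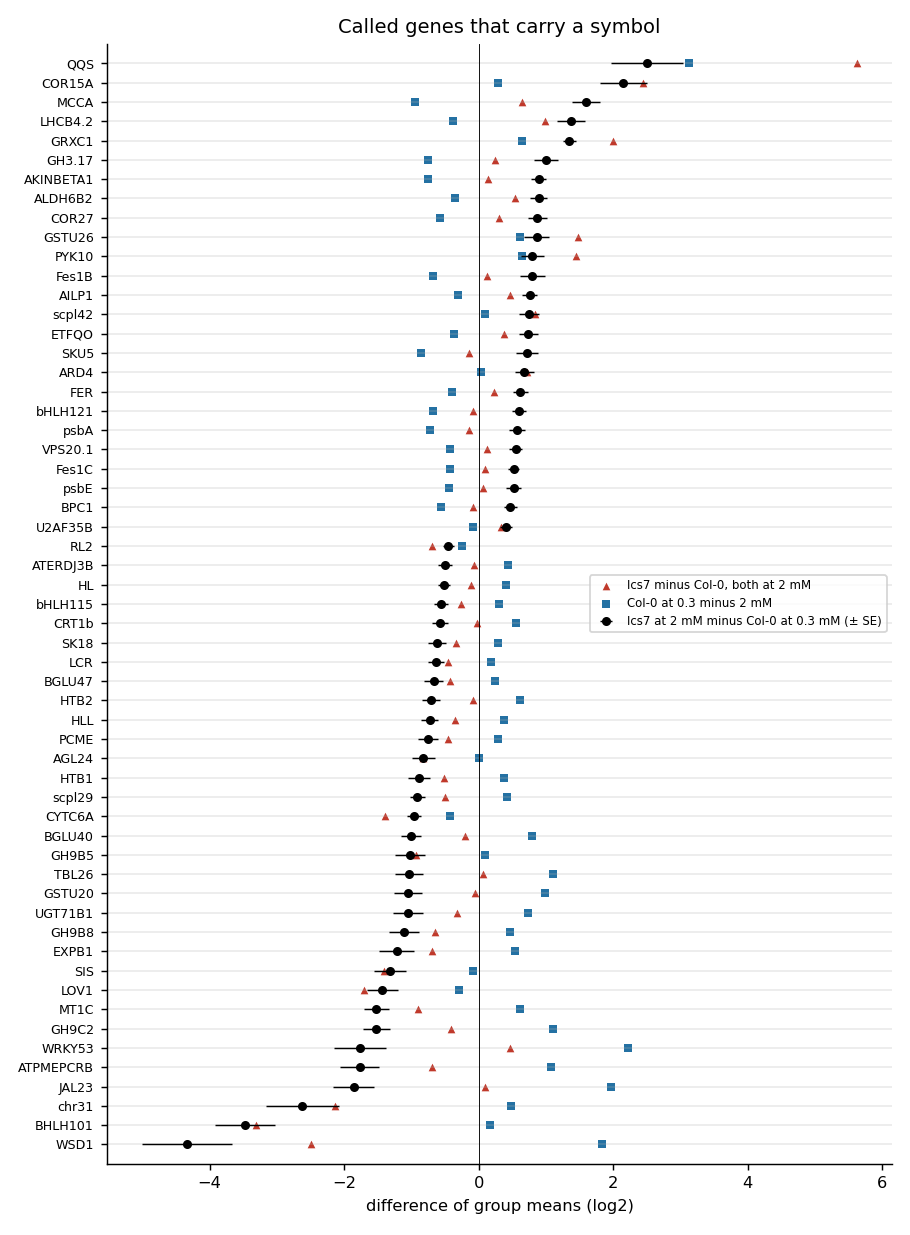
Differences of group means (log2) for the 57 called genes that carry a symbol, 25 higher and 32 lower: black circles with SE bars are lcs7 at 2 mM minus Col-0 at 0.3 mM, red triangles the effect of the mutation at 2 mM and blue squares that of low calcium in Col-0, with 3 arrays a group. COR15A and BHLH101 have the red triangle at the black circle, AKINBETA1 and JAL23 have the red triangle near 0, and MT1C and LHCB4.2 have the triangle and the square on opposite sides of 0.

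Gene lists were read against the shares of all genes called, 1.47% higher and 1.23% lower. The lists and genes outside the rule for named genes were chosen with values of these data known. Of 38 lists, 36 had a measured member. The proton ATPase, the other type of pump in the vacuole membrane, had 4 subunit genes measured. Of its VHA-A genes, VHA-A2 and VHA-A3 encode the vacuolar forms. None of the 4 passed the test, with a median of 0.09 and VHA-A2 at 0.20 ± 0.11 (adjusted p = 0.359). Of 8 genes listed as calcium sensors, 7 of them calmodulin-like by symbol, none was called (median -0.09). CML37 was at 7.6, 1.4 and 2.2 in lcs7 at 2 mM and at 34.7, 48.9 and 15.5 in Col-0 at 0.3 mM, a difference of -3.38 ± 0.93 near background (adjusted p = 0.097). Of 8 genes listed for calcium transport, 7 are glutamate receptor-like channels and the other is CaS, a calcium-sensing protein of the thylakoid. None was called (median -0.17), with GLR1.4 at -0.45 ± 0.20 (adjusted p = 0.281).

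Among the 7 ER body genes, 6 differences were above 0, as were 6408 of all 13356 genes, and the median was 0.61. Yet 1 was called higher (PYK10) and 1 lower (JAL23), and neither without the doubted arrays. JAL33 missed the threshold at 0.97 ± 0.22 (adjusted p = 0.0542), with 506.0, 633.2 and 522.8 in lcs7 at 2 mM against 264.1, 287.3 and 293.4 in Col-0 at 0.3 mM. JAL22 was at 0.71 ± 0.21 (adjusted p = 0.113), and NAI2, needed to form ER bodies, at 0.56 ± 0.17 (adjusted p = 0.132). JAL23 was the exception, with an effect of 0.10 (adjusted p = 0.921) for the mutation and 1.96 (adjusted p = 0.0435) for low calcium. Of 22 beta-glucosidases, 1 was called higher (PYK10) and 2 lower (BGLU40 and BGLU47), with a median of -0.15. Of the cold, drought and abscisic acid proteins 2 of 12 were called higher, COR15A and COR27, and none lower (median 0.19), and COR27 alone without the doubted arrays. COR15B was at 0.61 ± 0.23 (adjusted p = 0.199) and LTI30 at 0.75 ± 0.24 (adjusted p = 0.142), while COR47 was at 0.36 ± 0.19 (adjusted p = 0.369).

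Genes of the plastid genome stood higher in lcs7 at 2 mM as a list, mostly below the threshold for single genes. Of 69 genes, 2 were called higher and none lower. The median was 0.40, against -0.02 for all genes, and 68 differences were above 0, as were 6408 of all 13356 genes. An unadjusted p under 0.05 was reached by 15 of the 69, all higher, against 8.36% of all genes. The median level of the list against Col-0 at 2 mM was 0.15, -0.24 and -0.14 on the lcs7 arrays at 2 mM, and -0.38, -0.40 and -0.77 on the Col-0 arrays at 0.3 mM. It was -1.0, -0.92 and -0.36 in lcs7 at 0.3 mM, so both low-calcium groups were below both groups at 2 mM. Without the doubted arrays the median was 0.28 and none was called. Many plastid genes share transcripts, so their values are not independent. Of 11 photosystem and antenna genes of the nucleus, LHCB4.2 alone was called, and its relatives LHCB4.1 (0.23 ± 0.09, adjusted p = 0.203) and LHCB4.3 (-0.39 ± 0.20, adjusted p = 0.331) were not.

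Of 44 wall-loosening genes none was called higher and 4 lower, namely GH9C2, EXPB1 (-1.22 ± 0.26, adjusted p = 0.046), GH9B8 (-1.11 ± 0.22, adjusted p = 0.0372) and GH9B5 (-1.02 ± 0.22, adjusted p = 0.048). EXPB1 encodes an expansin, which loosens walls, and the others are family 9 endoglucanases. These were called in 1 or 2 of 12 fits except GH9C2, in 12. The median of the list was 0.04, and an unadjusted p under 0.05 was reached by 11 of the 44 lower and 3 higher, against 9.52% and 8.36% of all genes. Without the doubted arrays none of the 44 was called. Among 6 pectin genes PME41 alone was called, lower. In the list of histones and cell cycle genes 2 of 7 were called lower, HTB1 and HTB2 (median -0.41). Neither was called without the doubted arrays. HTB4, another histone H2B gene, was at -0.41 ± 0.13 (adjusted p = 0.143). HTB11, described above, went the other way. With all arrays it was at 1.31 and not called (adjusted p = 0.361), and without the doubted arrays it was at 3.37.

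The list of iron deficiency genes did not hold bHLH121, the iron regulator described above, which was called higher (3 of 12 fits). Of its 3 members, PYE was at -0.44 ± 0.25 (adjusted p = 0.4). The other 2 were called lower, BHLH101 (12 of 12) and bHLH115 (-0.56 ± 0.10, adjusted p = 0.0291, 4 of 12). They belonged to different classes, with BHLH101 moved by the mutation and bHLH115 opposed, and BHLH101 alone was called without the doubted arrays. Among 7 genes of heat shock and ER folding, CRT1b and ATERDJ3B were called lower (median -0.04), and neither without the doubted arrays. Of 11 auxin response genes GH3.17 was called higher and none lower, with a median of 0.87 and no call without the doubted arrays, and GH3.3 was at 0.87 ± 0.22 (adjusted p = 0.0793). Of 37 defence genes WRKY53 alone was called, lower, and the median was -0.08. An unadjusted p under 0.05 was reached by 7 of them, all lower, against 9.52% of all genes lower and 8.36% higher. Without the doubted arrays WRKY53 lost the call and THI2.1, a thionin, was called lower. The glutathione transferases had 1 of 14 called higher and 1 lower (median -0.23), and the serine carboxypeptidase-like genes 1 of 29 in each direction (median -0.24). Of 51 UDP-glycosyltransferases UGT71B1 alone was called, lower, at -1.05 ± 0.23 (adjusted p = 0.0461). Without the doubted arrays its difference was -1.29. An unadjusted p under 0.05 was reached by 9 of the 51 higher and 9 lower, against 8.36% and 9.52% of all genes. In the list of starch genes QQS alone of 3 was called.

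No member was called among 24 cytochromes P450 (median -0.14), 8 anthocyanin and flavonol genes (-0.27), 8 chlorophyll synthesis genes (0.04), 21 plastid assembly genes (0.01), 15 tubulin and cellulose genes (0.08) or 19 sugar transporters (0.05). The same held for 11 autophagy genes (median 0.00), 8 genes of succinate dehydrogenase and ATP-citrate lyase (-0.17) and 4 glucosinolate genes (-0.58). Without the doubted arrays CHLI2 of the chlorophyll list was called higher and IRX15-L of the cellulose list lower. Near the threshold with all arrays were AT1G06000 of the flavonol list (-1.43 ± 0.33, adjusted p = 0.0559), TUB5, a beta-tubulin (0.55 ± 0.13, adjusted p = 0.0562), and the vacuolar sugar transporter SWEET16 (1.15 ± 0.27, adjusted p = 0.0616). Lists with 1 measured member gave the clock gene GI (1.47 ± 0.42, adjusted p = 0.109, and called at 2.59 without the doubted arrays), the jasmonate gene JRG21 (-3.11 ± 0.91, adjusted p = 0.112), the zinc finger STZ (-1.29 ± 0.57, adjusted p = 0.275), PAP20 (-0.04 ± 0.94, adjusted p = 0.99) and the ribosomal gene AT1G77750 (-0.06 ± 0.14, adjusted p = 0.872). JRG21 was at 9.8, 1.9 and 26.6 in lcs7 at 2 mM and at 95, 97.4 and 34.2 in Col-0 at 0.3 mM, groups that did not overlap.

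**Figure D4:**
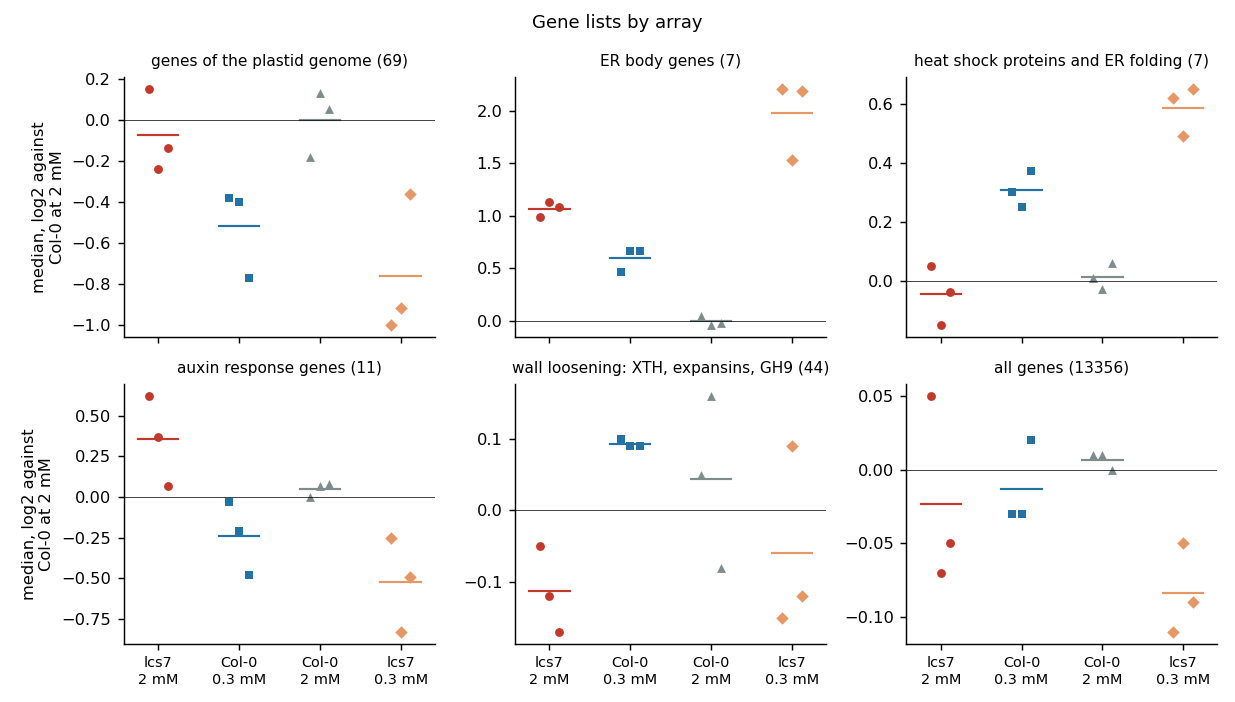
Median level of 5 gene lists and of all genes on each array (points), as log2 against the mean of Col-0 at 2 mM, with the group mean as a bar, the number of genes in brackets and a scale of its own in each panel. The plastid genes of lcs7 at 2 mM lie from -0.24 to 0.15, above Col-0 at 0.3 mM at -0.77 to -0.38, and the ER body genes lie at 0.99 to 1.13 in lcs7 at 2 mM against 0.46 to 0.66 in Col-0 at 0.3 mM.

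Against Col-0 at 2 mM the mutation at 2 mM called 367 genes (2.75%), 1.64% higher and 1.11% lower, and low calcium in Col-0 called 41 (0.307%), 0.195% higher and 0.112% lower. Some genes were moved by both without being separated by the comparison. Because both effects are taken against the same Col-0 arrays at 2 mM, their likeness is given as values only, for genes chosen after the values were seen. AT3G28940, listed by locus only, was at 4576.3, 4347.2 and 5158.6 in lcs7 at 2 mM and at 5227.4, 4328.1 and 4759.7 in Col-0 at 0.3 mM. The groups overlapped, and the difference was -0.02 with a 95% interval from -0.29 to 0.25, so a gap of more than that was not measured. The mutation had raised it by 0.79 (adjusted p = 0.0111) and low calcium by 0.81 (adjusted p = 0.037). AT4G03450 rose by 1.77 (adjusted p = 0.01) with the mutation and by 1.90 (adjusted p = 0.0322) with low calcium, and the difference was -0.13 with an interval from -0.71 to 0.45.

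The neighbouring genes AT5G52750 and AT5G52760 were also high in both groups. AT5G52750 was at 729.6, 500.4 and 683.1 in lcs7 at 2 mM and at 787.9, 917.6 and 756.9 in Col-0 at 0.3 mM, with a difference of -0.38 and an interval from -0.97 to 0.22. Col-0 at 2 mM was at 143.7 to 253.1, below all 6 arrays. AT5G52760 had a difference of -0.61 with an interval from -1.12 to -0.11, which did not pass after adjustment (adjusted p = 0.187). AT1G13750 leaned the other way, at 0.50 with an interval from 0.01 to 0.99 (adjusted p = 0.266). For these genes the intervals still allow differences of 1.5-fold or more, so they are not shown to respond equally.

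The comparison of lcs7 at 0.3 mM with Col-0 at 2 mM shares no array with the one above, and shows what the called genes did where mutation and low calcium came together. It called 29.8% of all genes, 12.9% higher and 16.9% lower. The effect of the mutation differed between the calcium levels for 308 genes (2.31%), with 0.973% higher and 1.33% lower at 0.3 mM than at 2 mM. Of the 196 genes higher in lcs7 at 2 mM than in Col-0 at 0.3 mM, 55 were called higher and 71 lower under both conditions together. Of the 164 lower ones, 48 were called higher and 46 lower. Neither set thus moved in 1 direction: COR15A (0.40, adjusted p = 0.445) was close to its start, AT5G24240 (7.77, adjusted p = 7.22e-05) was far above it, and AKINBETA1 (-1.56, adjusted p = 3.45e-05) was below it. Among the falls, JAL23 was far above Col-0 at 2 mM (5.32, adjusted p = 1.46e-05), MT1C differed from it by 0.00 (adjusted p = 0.99), and CYTC6A was below it (-2.84, adjusted p = 5.11e-06).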

How the data were processed

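Signals of 12 Arabidopsis ATH1 arrays were analysed. The authors deposited probe set intensities on a linear scale, with a floor of 0.1 and nearly equal trimmed means. RMA and oligo 1.32.0 are named per the submitters' processing notes, but the deposited intensities are linear and their quantiles differ between arrays, so how they were summarised is not given in the sources used here. Arrays give no depth, and 3 arrays a group limit the precision. Probe sets were named by the platform annotation, with 13436 of 13513 matched to RefSeq, and the brightest per gene was kept. Tests used limma 3.58.1 in R 4.3.3 on log2 signals with no offset, 2-sided, with Benjamini-Hochberg adjustment over all genes. Tables were made with Python 3.11.15 (pandas 2.3.3, numpy 2.4.6), and figures with matplotlib 3.10.9. The tests were checked on simulated data.

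The comparison, the members and the lists were chosen with earlier results of these data known. Named by rule were the 15 largest rises and falls (group signals under 20 raised to 20) among called, non-overlapping genes with every array of the brighter group at 100 or more and a probe set of their own, the 5 largest per place and direction, and up to 4 called members of a list or else the 2 with the smallest p. Other genes were named after their values were seen. Names that matched a list only by chance were removed after the values were seen, and the list patterns for iron and serine carboxypeptidase genes were made to ignore case. Alternatives were other moderation, weights, normalization, filters, offsets and probe set choices, a fold limit, the replicate number as a term, and left-out arrays.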

Additional observations from a re-analysis of the deposited data

Results flagged for a closer look

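The effect of the mutation differed between the calcium levels for 14 of the 90 genes named by rule. The test was limma's interaction test adjusted over all genes, which called 2.31% of all 13356 genes. Many of the 90 were named for their values on arrays that this test also uses, so the 2 shares are not compared. Each value is the genotype effect (lcs7 minus Col-0, log2) at 0.3 mM minus that at 2 mM. A smaller effect at 0.3 mM was found for QQS (1.63 at 0.3 mM and 5.62 at 2 mM, difference -3.99, adjusted p = 0.034), COR15A (0.11 and 2.44, -2.33, adjusted p = 0.0471), AT5G42250 (1.44 and 3.58, -2.14, adjusted p = 0.036) and AT5G35970 (0.27 and 1.71, -1.44, adjusted p = 0.0197). The same held for GSTU26 (0.13 and 1.47, -1.34, adjusted p = 0.0361). For CHLI2, a subunit of magnesium chelatase in chlorophyll synthesis, the effects were -0.23 at 0.3 mM and 0.71 at 2 mM (-0.94, adjusted p = 0.0229), and for TUB5 they were -0.90 and 0.15 (-1.05, adjusted p = 0.0233).

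The effect was higher at 0.3 mM for JAL23 (3.37 at 0.3 mM and 0.10 at 2 mM, difference 3.27, adjusted p = 0.0132), CML43 (1.91 and 0.09, 1.82, adjusted p = 0.0248), AT1G52000 (1.60 and -0.06, 1.66, adjusted p = 0.042), GH3.17 (1.45 and 0.24, 1.21, adjusted p = 0.0424), AT4G23680 (0.82 and -0.38, 1.2, adjusted p = 0.0476) and ATERDJ3B (0.78 and -0.07, 0.85, adjusted p = 0.0279). BHLH101 was lowered at 2 mM and less so at 0.3 mM (-0.31 and -3.31, difference 3.0, adjusted p = 0.0447), with lcs7 near background at 2 mM. These values use the Col-0 arrays at 0.3 mM that stood apart.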

How the results depend on the processing

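The count of 360 genes (196 higher, 164 lower) changed with the choices below. It was 848 (408 and 440) with an intensity trend, 853 (402 and 451) without the 40% dimmest genes, 927 (440 and 487) with a mean of at least 100 in a compared group, 731 (372 and 359) with an offset of 50, 652 (332 and 320) with signals under 20 raised to 20 and 955 (501 and 454) over all probe sets. It was 148 (83 and 65) with a fold of at least 2, 241 (184 and 57) with the doubted pair (Col-0 replicates 2 and 3, low calcium) left out, and 4 (2 and 2) with the 6 compared arrays alone, where an unadjusted p under 0.05 was reached by 1792 genes. Single arrays left out gave 65 to 250 calls, 25 to 130 higher and 40 to 120 lower. Robust moderation gave 291 calls, array weights 274, quantile normalization 355, median centring 307 and the mean over probe sets 356.

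The replicate numbers did not pair the arrays: deviations of same-numbered lcs7 and Col-0 arrays correlated across genes at 0.02, 0.02 and -0.04. With the replicate block, 102 genes were called (57 higher, 45 lower), 96 of them among the 360. PAP20, near background and not called at -0.04, changed sign to 0.01 with median centring, 0.03 with the offset, 0.13 with the floor and 1.48 without Col-0 replicates 2 and 3, and lay at -0.99 to 0.70 without single arrays. The causes were not tested, except that some alternatives test fewer genes or arrays by construction. Signals under 20 and 3 arrays a group limit what can be called.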
